A study of Mus musculus with 6 samples.

Results

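The voltage-gated calcium channel genes described here are 10 subunit genes chosen by name, out of 24421 genes in the count tables. They comprise 5 pore genes (Cacna1a, Cacna1c, Cacna1d, Cacna1e and Cacna1g), the alpha2delta genes Cacna2d1 and Cacna2d2, the beta gene Cacnb4, and the gamma genes Cacng2 and Cacng7. All 10 had counts, and 6 of them had enough counts to be tested. RNA came from microdissected cerebellum of 1 year old mice, cut to hold the layer of Purkinje neurons and the molecular layer, from 3 mice labelled wild type (WT) and 3 labelled STIM1 knockout (KO). The series text calls the replicates biological. The labels give no strain, no promoter or cell type in which Stim1 was removed, and no treatment. The comparison asks whether transcripts of this tissue differ between the genotypes, where STIM1 is the sensor of endoplasmic reticulum calcium that opens Orai channels at the plasma membrane.

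A voltage-gated calcium channel is built around a pore subunit (alpha1) that senses the membrane potential and lets calcium through. An intracellular beta subunit and an extracellular alpha2delta subunit bring the pore to the membrane and tune its opening, and some gamma proteins act mainly as auxiliary subunits of AMPA receptors. Purkinje cells are known for carrying most of their calcium current through P/Q-type channels, whose pore is the product of Cacna1a. Mutations of Cacna1a, Cacnb4, Cacna2d2 and Cacng2 in mice cause inherited ataxias, the mutants tottering, lethargic, ducky and stargazer.

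The 6 libraries held 645994 to 764839 counts in genes, which was 1.16% to 1.23% of the uniquely aligned reads, so single genes were read at low depth. Stim1 had 7, 21 and 3 reads in WT libraries 1 to 3 and 4, 3 and 2 reads in KO libraries 1 to 3, below the filter, and the labels do not give the deleted part of the gene. WT replicate 3 and KO replicate 3 held 28 and 14 Y-linked counts, and the other libraries held 0. The sources do not say which strand was counted. Tsix, on the strand opposite to Xist, had 22.0 to 37.8 times the counts of Xist in the 4 libraries with no Y-linked counts. In WT replicate 3 and KO replicate 3, which hold Y-linked counts, Tsix had 2 and 1 counts and Xist 10 and 4. Whether the counts in genes come from the opposite strand was not tested. A mean of 98.8% of uniquely aligned reads over the 6 libraries were assigned to no gene. Reads of a channel gene's own transcript and reads of its opposite strand cannot be told apart in these counts, and this holds for every level and fold change below. Of 15 Purkinje cell markers all 15 had counts. So did all 12 granule cell, all 7 microglia and all 5 endothelium markers, so having counts does not set the Purkinje list apart. The summed level of the list was 4218 to 4999 CPM (a gene's counts scaled to the library's total, with TMM factors) in WT and 3190 to 3990 CPM in KO, without overlap. Without Itpr1, its most abundant gene, the sums were 2496 to 2986 CPM and 2009 to 2609 CPM, which overlapped. The 11 Bergmann glia and astrocyte markers summed to 993 to 1177 CPM in WT and 750 to 909 CPM in KO, also without overlap. Of the 9 of them that were tested, 7 had a log2 fold change below 0 and 2 above. Only 1 of the 9 had libraries without overlap, beside 10.7% of all genes tested. It was S100b, at 210 to 246 CPM in WT and 77.9 to 187 CPM in KO, so the separation of the sum does not describe each gene. The 12 granule cell markers summed to 589 to 644 CPM in WT and 563 to 676 CPM in KO, which overlapped. The part of these markers in the channel values was not tested. In bulk tissue, fewer cells of a type and less RNA per cell cannot be told apart.

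Cacnb4, Cacna1a, Cacng2 and Cacna2d2 held most of the channel counts, and no difference between the genotypes passed the test in any of the 6 tested genes. Summed over the 10, the level was 577 ± 18.6 CPM over the WT libraries and 554 ± 18.7 CPM over the KO libraries (SD, n = 3 per genotype), and the libraries overlapped. The sum over all 26 subunit genes did not overlap, at 663 to 678 CPM in WT and 639 to 650 CPM in KO, and this sum, looked at after its values were seen, was not tested. Among the 6 tested genes, 0 were higher and 0 lower at an adjusted p under 0.05 in edgeR's quasi-likelihood test (Benjamini-Hochberg over all 5320 genes tested), and 0 had an unadjusted p under 0.05. Over all genes the share called was 0.0% at the adjusted and 4.62% (246 genes) at the unadjusted level. DESeq2, edgeR's exact test and limma-voom called 0 of the 6 as well. The median log2 fold change of the 6 genes was -0.077, beside 0.0019 over all genes tested. Of the 6, 4 had a log2 fold change below 0, and 49.7% of all genes tested did.

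**Figure D1:**
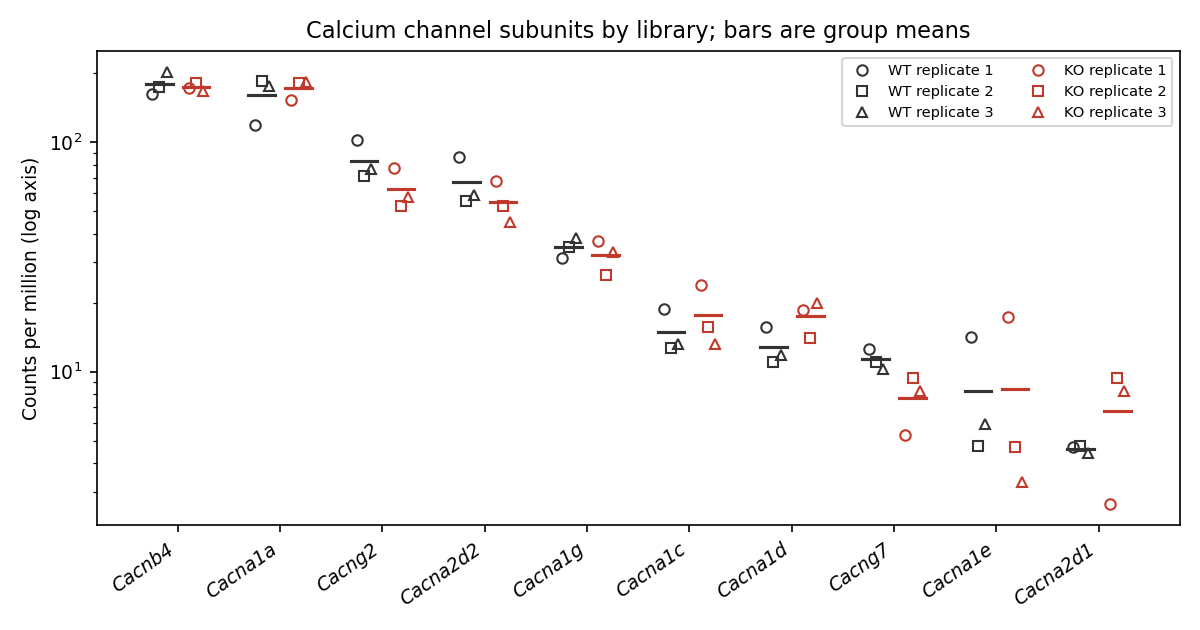
CPM (log axis) of the 10 calcium channel genes in each library, WT in black and KO in red, with a symbol for each replicate number and a bar at each group mean. Cacnb4 and Cacna1a lie highest in both genotypes, and Cacng7 is the gene whose WT and KO libraries do not overlap.

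Of the pore genes, Cacna1a had the most counts. The gene (chromosome 8, 84388440 to 84640246, plus strand, GRCm38) encodes the P/Q-type pore. It had 76, 117 and 120 reads in WT libraries 1 to 3 and 115, 116 and 111 reads in KO libraries 1 to 3. WT replicate 1 stood below the other 5 libraries, and the genotypes overlapped. On the CPM scale the level was 160 ± 35.9 over the WT libraries and 172 ± 17.1 over the KO libraries (SD, n = 3 per genotype). The log2 fold change of KO over WT was 0.10 with a standard error of 0.18 (edgeR adjusted p = 0.997). Its 95% interval ran from -0.29 to 0.49, that is from 0.819-fold to 1.40-fold. Without WT replicate 1 the log2 fold change was -0.077. Cacna1a made up 66.1% ± 6.32 of the summed pore level per kilobase of exon in WT and 66.0% ± 5.36 for KO (SD, n = 3 per genotype, over 10 pore genes).

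Cacna1g (chromosome 11, 94408391 to 94474198, minus strand) encodes a T-type pore, which opens at more negative potentials than the other types. It had 20, 22 and 26 counts across the WT libraries and 28, 17 and 20 across the KO libraries. On the CPM scale the WT libraries ran from 31.4 to 38.3 and the KO libraries from 26.5 (replicate 2) to 37.2, so they overlapped. KO over WT gave a log2 fold change of -0.10 (SE 0.27, 95% interval -0.68 to 0.47, edgeR adjusted p = 0.997). Cacna1g was the next largest pore gene per kilobase of exon, at 16.4% ± 1.68 of the class in WT and 13.9% ± 2.45 for KO (SD, n = 3 per genotype).

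Cacna1d and Cacna1c encode the L-type pores of brain, the target of dihydropyridines. Cacna1d (chromosome 14, 30039939 to 30491455, minus strand) had 10, 7 and 8 counts across the WT libraries and 14, 9 and 12 across the KO libraries. KO replicates 1 and 3 were above every WT library, and KO replicate 2 lay within the WT range. The log2 fold change was 0.44, the highest of the 6 tested genes, with a standard error of 0.39, a 95% interval of -0.37 to 1.26 and an edgeR adjusted p of 0.987. Cacna1c (chromosome 6, 118587240 to 119196418, minus strand) had 12, 8 and 9 counts across the WT libraries and 18, 10 and 8 across the KO libraries, and stayed below the filter. Replicate 1 was the highest of its genotype in both. With no filter its log2 fold change was 0.28 (SE 0.42).

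Cacna1e (chromosome 1, 154390731 to 154884501, minus strand) encodes the R-type pore. It had 9, 3 and 4 counts across the WT libraries and 13, 3 and 2 across the KO libraries, again with replicate 1 highest in both genotypes. Its coefficient of variation over the 6 libraries was 70.1%, the widest of the 10, where counting error alone gives 42.0%. With no filter the log2 fold change was 0.12 (SE 0.56), which leaves changes from -0.97 to 1.22 within the 95% interval.

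**Figure D2:**
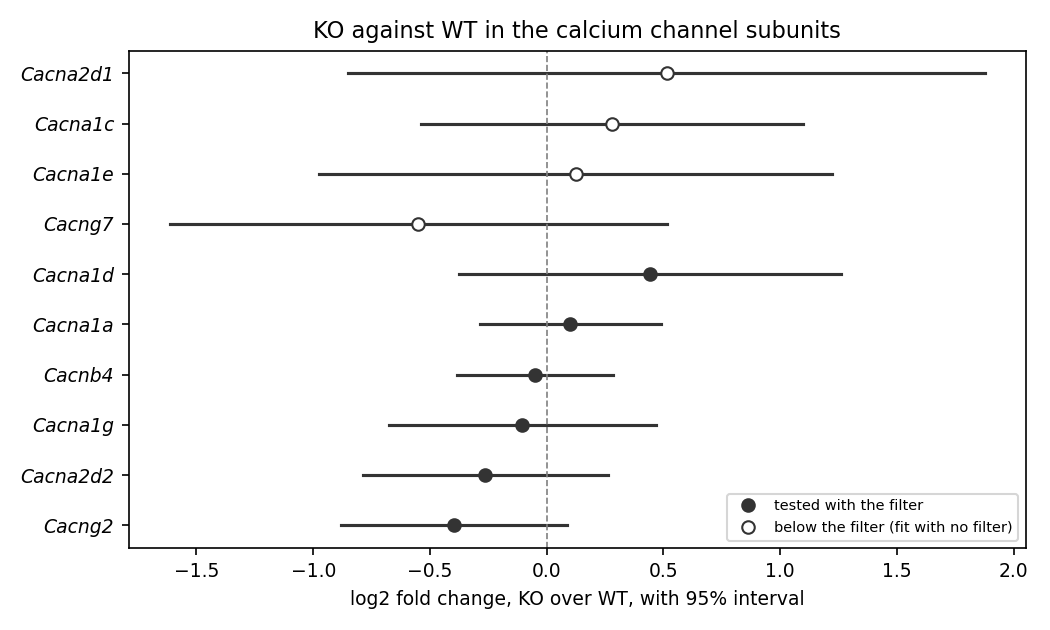
Log2 fold change of KO over WT with its 95% interval for the 10 genes, filled where the gene passed the filter and open where the value comes from the fit with no filter. Every interval includes 0; the narrowest is that of Cacnb4 (-0.39 to 0.29), and Cacng2 (-0.88 to 0.087) lies farthest below 0 of the 6 tested genes.

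The alpha2delta genes differed widely in level. Cacna2d2 (chromosome 9, 107399612 to 107529343, plus strand), the gene of the ducky mutant, had 55, 35 and 40 counts across the WT libraries and 51, 34 and 27 across the KO libraries. Replicate 1 was the highest library of each genotype, and the groups overlapped. The level was 66.8 ± 16.9 CPM over the WT libraries and 55.2 ± 11.7 CPM over the KO libraries (SD, n = 3 per genotype). For KO over WT the log2 fold change was -0.26 (SE 0.25, 95% interval -0.79 to 0.26, edgeR adjusted p = 0.987), and it was -0.046 without WT replicate 1. Cacna2d1 (chromosome 5, 15934691 to 16374511, plus strand), a binding site of gabapentin, had 3 counts in each WT library and 2, 6 and 5 in KO. At 9 counts in all WT libraries (exact Poisson 95% interval 4.12 to 17.1) and 13 in all KO libraries (6.92 to 22.2), the intervals overlapped. These intervals cover counting error only.

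An alpha2delta gene outside the named 10, Cacna2d3, was the only other subunit gene to pass the filter, with 33, 22 and 26 counts across the WT libraries and 24, 41 and 35 across the KO libraries. Its log2 fold change was 0.28 (SE 0.29, edgeR adjusted p = 0.987). Per kilobase of exon Cacna2d2 held 62.6%, 60.5% and 60.2% of the alpha2delta level in WT and 68.8%, 45.2% and 42.3% in KO. KO replicate 1 lay above the WT libraries and KO replicates 2 and 3 below them.

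Cacnb4 (chromosome 2, 52428320 to 52676831, minus strand), the beta subunit gene of the lethargic mutant, had the highest level of the 10. It had 104, 110 and 137 counts across the WT libraries and 130, 116 and 101 across the KO libraries. The groups overlapped, and the level was 180 ± 20.01 CPM over the WT libraries and 174 ± 6.80 CPM over the KO libraries (SD, n = 3 per genotype). A log2 fold change of -0.050 was fitted (SE 0.16, edgeR adjusted p = 0.997), and the 95% interval of the fold ran from 0.766 to 1.22. Its coefficient of variation over the 6 libraries was 7.79%, below the 9.27% that counting error gives at this depth. Of the 4 beta genes, Cacnb4 held 88.2% ± 2.84 of the level per kilobase of exon in WT and 92.5% ± 1.70 for KO (SD, n = 3 per genotype).

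Over the 6 libraries, the tested genes most like Cacnb4 in log2 CPM were the myelin gene Mbp (Pearson r = 0.98, Spearman rho = 0.94), the proteasome subunit gene Psmd7 (r = 0.96, rho = 0.89) and Fam57b (r = 0.95, rho = 0.94). They were picked as the highest of all tested genes over 6 libraries that share their depth and scaling, so the values describe these libraries only.

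Cacng2 and Cacng7 belong to the gamma family and are known as AMPA receptor auxiliary subunits. Cacng2 (chromosome 15, 77991748 to 78120028, minus strand) encodes stargazin, which carries AMPA receptors to the synapse. It had 65, 45 and 52 counts across the WT libraries and 58, 34 and 35 across the KO libraries. KO replicates 2 and 3 were below every WT library, and KO replicate 1 was above WT replicates 2 and 3. The level was 83.2 ± 16.4 CPM over the WT libraries and 62.7 ± 12.7 CPM over the KO libraries (SD, n = 3 per genotype). The log2 fold change was -0.40 (SE 0.23, 95% interval -0.88 to 0.087, edgeR adjusted p = 0.987), the lowest of the 6 tested genes. The log2 ratio was -0.41 within the 4 libraries without Y-linked counts and -0.40 between the 2 libraries with them, where each genotype has 1 library. Leaving out 1 library at a time, the log2 fold change ran from -0.59 without KO replicate 1 to -0.23 without WT replicate 1. The first of these had an unadjusted p of 0.0378 in edgeR and an adjusted p of 0.947.

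Cacng7 (chromosome 7, 3332955 to 3368221, plus strand) had 8, 7 and 7 counts across the WT libraries and 4, 6 and 5 across the KO libraries. All 3 KO libraries lay below the lowest WT library, the only one of the 10 genes without overlap. Among genes under the filter with 18 or more counts in all, 6.4% lay entirely lower in KO, and 6.11% of the genes tested did. The sums of 22 counts in WT (exact Poisson 95% interval 13.8 to 33.3) and 15 in KO (8.40 to 24.7) overlapped in their intervals. With no filter the log2 fold change was -0.55 (SE 0.54, edgeR adjusted p = 0.904).

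Cacng5, a gamma gene outside the 10 that was singled out after its values were seen, had 9, 4 and 8 counts across the WT libraries and 1, 1 and 3 across the KO libraries. With no filter its log2 fold change was -1.997 (SE 0.71, unadjusted p = 0.00464, edgeR adjusted p = 0.904), where 3.86% of 16540 genes had an unadjusted p under 0.05. The authors' deposited edgeR table gave it an unadjusted p of 0.00498 and a fold on the log2 scale, WT over KO, of 2.002.

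Per kilobase of exon Cacng2 held 61.5% ± 2.59 of the summed level of the 8 gamma genes in WT and 70.6% ± 11.0 for KO (SD, n = 3 per genotype). That sum was 21.9 to 28.9 CPM per kilobase in WT and 14.3 to 17.1 in KO. The KO libraries lay below the WT libraries on this scale. The summed raw counts, at 60 to 85 in WT and 42 to 64 in KO, overlapped, but they are not scaled for depth. The 64 was that of KO replicate 1, the library with the most counts in genes (764839). The sum was looked at after its values were seen and was not tested.

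**Figure D3:**
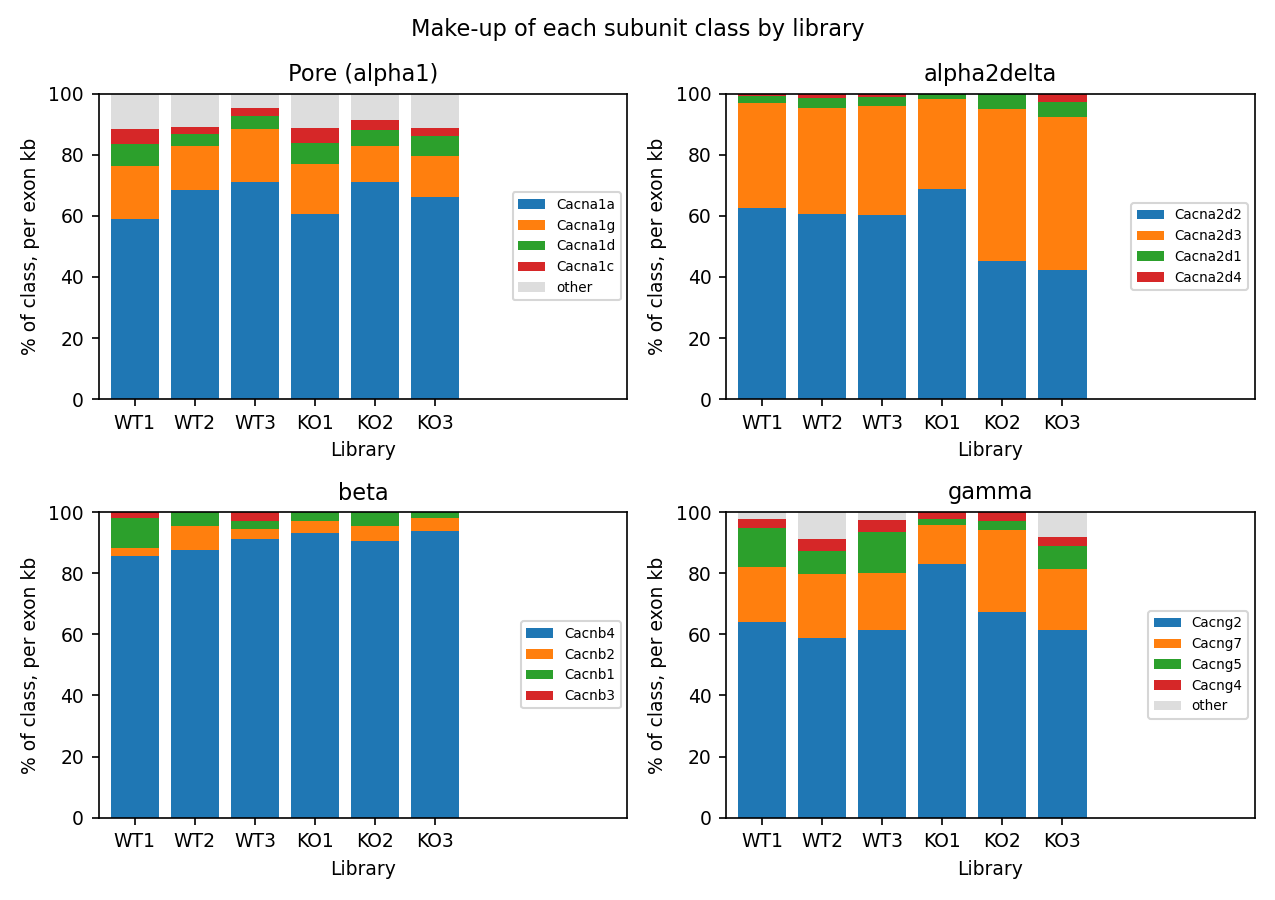
Share of each gene in the summed level per kilobase of exon of its subunit class, by library, with the 4 largest genes of a class in colour and the rest in grey. Cacna1a and Cacnb4 make up most of their classes in all 6 libraries, and the share of Cacna2d2 is 42.3% to 45.2% in KO replicates 2 and 3 and 60.2% or more in the others.

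Genes can be compared in level only per length, here as CPM per kilobase of annotated exon. The order in WT was Cacnb4 (20.04 ± 2.23), Cacng2 (15.1 ± 2.98), Cacna1a (14.0 ± 3.14), Cacna2d2 (8.41 ± 2.12), Cacng7 (4.63 ± 0.464), Cacna1g (3.43 ± 0.343), Cacna1d (1.02 ± 0.196), Cacna1c (0.704 ± 0.160), Cacna2d1 (0.372 ± 0.0142) and Cacna1e (0.327 ± 0.202) (SD, n = 3 each). The WT libraries of Cacnb4, Cacng2, Cacna1a and Cacna2d2 overlapped from each gene to the next, as did those of Cacna1d with Cacna1c and Cacna2d1 with Cacna1e. The other neighbours were separated in all 3 WT libraries. In KO, Cacna1a (15.1 ± 1.498) stood before Cacng2 (11.4 ± 2.31), and Cacna1g (3.18 ± 0.533) before Cacng7 (3.13 ± 0.857), and both pairs overlapped. Among 15889 genes with a count and an annotated length, Cacnb4 lay at percentile 89.3 of the mean level, Cacna1a at 87.0 and Cacna1e at 20.1.

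**Figure D4:**
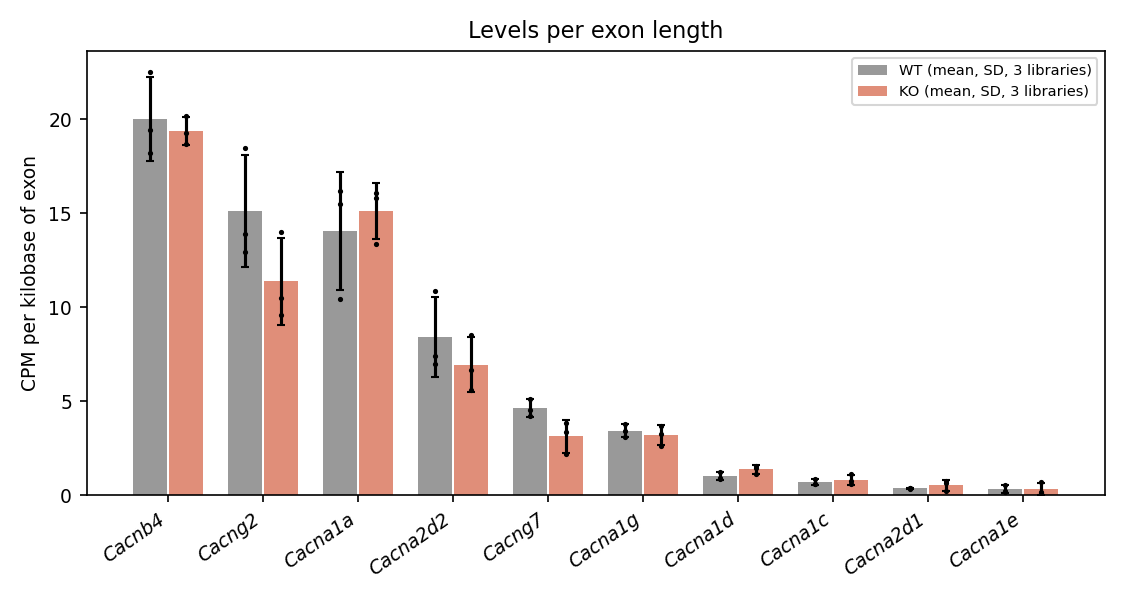
Level per kilobase of exon of the 10 genes in WT (grey) and KO (red) as the mean of 3 libraries, with SD bars and a dot for each library. Cacnb4, Cacng2, Cacna1a and Cacna2d2 lie above the other 6 genes in both genotypes.

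Of the 16 subunit genes outside the named 10, 14 had fewer than 10 counts in every library. Cacng3 and Cacng6 had 0 counts in all 6, which allows up to 3.92 to 4.64 CPM per library (3 counts, counting error only). Unlike the other CPM values, these limits are scaled without TMM factors. Cacna1b, the N-type pore of presynaptic terminals, had 4, 5 and 3 counts across the WT libraries and 0, 6 and 7 across the KO libraries. Cacna1s, the pore of skeletal muscle, had at most 2 counts. A list of 6 markers of skeletal, cardiac and smooth muscle summed to 307 to 356 CPM in WT and 300 to 456 CPM in KO. Most of it came from Myh6 (152 to 226 CPM over the 6 libraries), Des (62.9 to 132 CPM) and Tagln (54.5 to 81.1 CPM). Tagln shares 67.9% of its exon bases with genes of the opposite strand. Acta1, Acta2 and Myh11 had 0 to 11 counts per library. The libraries of 2 of the 16 genes, Cacng4 and Cacng5, did not overlap, and both were lower in KO, beside 6.11% of the genes tested and 6.4% of genes under the filter with 18 or more counts. Cacng4 lay below that depth, with 2 counts in each WT library and 1 in each KO library.

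Replicate 1 was the highest of its genotype in both genotypes for 4 of the 10 genes, namely Cacna1c, Cacna1e, Cacna2d2 and Cacng2. Of the 6 tested genes 2 had this pattern, beside 13.3% of all genes tested, and the other 2 had 2 to 18 counts per library. Replicate 2 was highest in both genotypes for 1 of the 10, Cacna2d1, and replicate 3 for 0. Cacna2d1 had 3 counts in each WT library, so its order among them came from the scaling alone. Cacna1a was lowest in replicate 1 of both genotypes, at 119 CPM in WT and 153 CPM in KO. This pattern was picked after its values were seen, and how many of all genes tested have it was not counted. WT replicate 1 and KO replicate 1 also had the highest shares of reads in genes, 1.23% and 1.22%. The part of that share in these values was not tested.

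**Figure D5:**
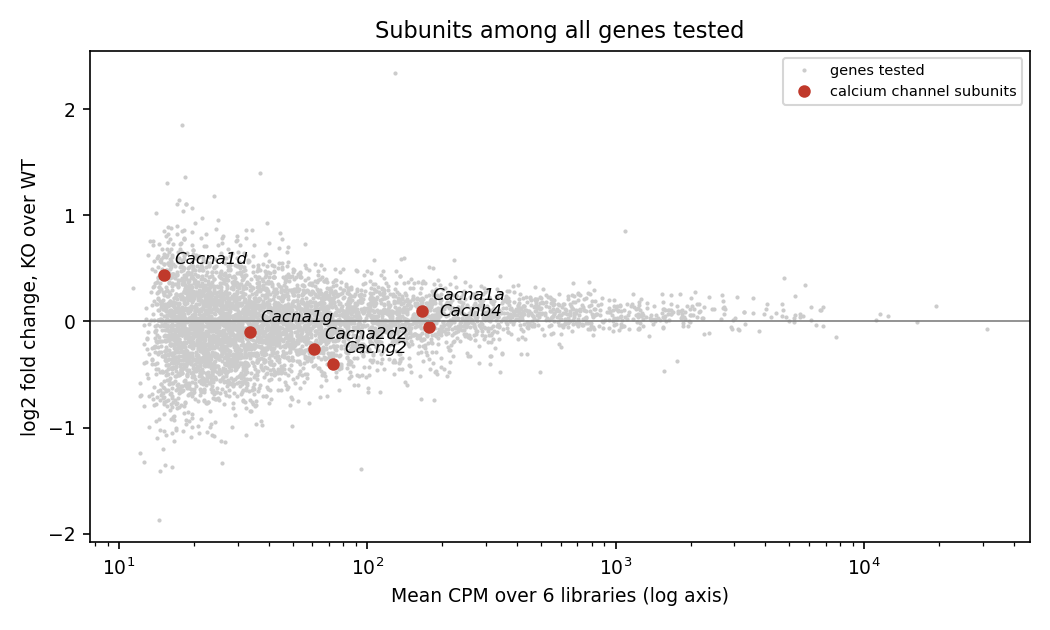
Log2 fold change of KO over WT against mean CPM (log axis) for all 5320 genes tested (grey), with the 6 tested calcium channel genes in red. The channel genes lie within the cloud of the other genes, between -0.40 (Cacng2) and 0.44 (Cacna1d).

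Several of the named genes overlap genes of the opposite strand. In the annotation 5 of the 10 share at least 50 bases of exon: Cacnb4 shares 1433 with A430018G15Rik, Cacna1d 589 with Chdh, Cacna1a 435 with Gm16183, Cacng2 323 with A730060N03Rik and Cacna2d2 82 with Gm17141. Chdh, the gene of choline dehydrogenase, is the only one of these partners with an entry in the authors' count files. It meets Cacna1d end to end on chromosome 14, where both hold exon from 30039939 to 30040527. Chdh had 300, 299 and 272 counts across the WT libraries and 412, 266 and 359 across the KO libraries, which was 29.4 to 42.7 times the counts of Cacna1d in the same library. Chdh had a log2 fold change of 0.21 (SE 0.15, edgeR adjusted p = 0.987). Without knowledge of strand, reads of Cacna1d and Chdh in the shared stretch cannot be told apart.

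Genes that work with these channels are given by lists. Of 8 tested channel regulators 6 had a log2 fold change below 0 and 2 above, with a median of -0.20 and 0 called in either direction. Among them the kinase gene Camk2a was at -0.47 (SE 0.29, edgeR adjusted p = 0.987). Of 10 tested presynaptic partners 6 were below 0 and 4 above, with a median of -0.18 and 0 called. Unc13a, a vesicle priming factor, was at -0.56 (SE 0.34) and the SNARE gene Snap25 at -0.19 (SE 0.18). Calcium-activated and spike-shaping channels had 3 below 0 and 4 above, a median of 0.052 and 0 called. Kcnmb4, a BK channel beta subunit gene, was at 0.46 (SE 0.30) and Kcnc1, a fast potassium channel gene, at 0.29 (SE 0.25).

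Of the 7 tested AMPA receptor partners of the gamma proteins 5 were below 0 and 2 above, with a median of -0.29 and 0 called. Dlg4, the scaffold that binds stargazin, had a mean of 80.2 ± 10.8 CPM over the WT libraries and 48.7 ± 5.05 CPM over the KO libraries (SD, n = 3 per genotype), and its log2 fold change was -0.71 (SE 0.22, edgeR adjusted p = 0.917). Gria1, an AMPA receptor pore subunit gene, was at -0.29 (SE 0.14, 0.987). The KO libraries of both lay below the WT libraries, as for 6.11% of all genes tested. In either direction, 3 of the 7 had libraries without overlap, beside 10.7% of all genes tested. The same count was 2 of 8 channel regulators, 2 of 7 calcium clearance genes, 0 of 10 presynaptic partners and 0 of 7 spike-shaping channels.

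All 7 tested genes of calcium clearance had a log2 fold change below 0, with a median of -0.52 and 0 called. Pvalb, the calcium buffer parvalbumin, was at -0.73 (SE 0.17, edgeR adjusted p = 0.917) and Atp2b2, the plasma membrane calcium pump of Purkinje cells, at -0.52 (SE 0.27, 0.987). Pvalb and Calb1 of this list are also Purkinje cell markers, and the part of those markers in its values was not tested. The lists were chosen with earlier results of these data known, and their medians stand beside 0.0019 over all genes tested.

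In the authors' deposited tables none of the 10 genes had an unadjusted p under 0.05. The authors' deposited DESeq table held 1.86% of its genes at that level, and the lowest p of the 10 was 0.162, for Cacng2 with a fold of KO over WT of 0.769. The authors' deposited edgeR table had 1.9% at that level, and the lowest p of the 10 there was 0.120, again for Cacng2, with a fold on the log2 scale, WT over KO, of 0.38.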

How the data were processed

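The authors deposited 1 file of raw read counts per library, by gene symbol, made with TopHat and HTSeq 0.9.1 on GRCm38 (mm10), per the submitters' processing notes. Neither the strand setting nor the annotation is given in the sources used here. Rows that name no gene (98.8% of uniquely aligned reads had no feature) were left out. The authors' deposited tables, used for description, give normalised mean signal, a fold (ratio) and a p-value from DESeq, and a log2 ratio and a p-value from edgeR.

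KO was compared with WT by the quasi-likelihood test of edgeR 4.0.16 (R 4.3.3), after TMM scaling and filterByExpr with a minimum count of 10, on all 6 libraries with no covariate and Benjamini-Hochberg adjustment over 5320 genes. The standard error comes from the F statistic. Alternatives were DESeq2 1.42.0, limma-voom (limma 3.58.1), edgeR's exact test, other scalings and filters, a replicate block, and leaving out libraries. The filter passed 6 of the 10 genes; the others have values from the fit with no filter. The test was also run on simulated counts. Their set changes were larger than any fitted for the 6 tested genes, and they held no effect of replicate number. That run therefore does not show how the test performs for these genes. Exon lengths and positions are from GENCODE M21 (GRCm38), which matched 23376 of 24421 symbols.

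The members and lists were chosen with earlier results of these data known. Named genes are the 10, Stim1, the 2 of lowest p per list where none passed, and the 3 most correlated with the member of most counts; 1 gene that this rule takes is not reported here. The other subunit genes, Chdh, Itpr1, Calb1, S100b, the muscle markers, Tsix and Xist are named outside this rule, after their values were seen. Library pairs differed by more than counting noise (chi-square of 2.31 or more per degree of freedom), so each library counted as 1 replicate. The lowest values were those of equal replicate numbers across genotypes, at 2.93, 2.31 and 2.53 for numbers 1 to 3. Pairs within a genotype began at 3.17 (WT replicates 2 and 3). The main test has no term for replicate number.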

Additional observations from a re-analysis of the deposited data

Results flagged for a closer look

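Reads outside the main measurement were the 1 result marked for a closer look: on average 98.8% of the uniquely aligned reads of a library were assigned to no gene, from 98.76% to 98.84%. The channel genes were therefore read from the remainder, at 2 to 137 counts per gene and library for the named 10. What the unassigned reads hold was not analysed here.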

How the results depend on the processing

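No channel gene was called under any alternative run, and the lowest adjusted p of a channel gene was 0.904. Over the 6 tested genes, 91 of 95 alternative values kept their direction. Those that did not were Cacna1a without WT replicate 1 (-0.077), Cacna1g without KO replicate 2 (0.011), and Cacnb4 without WT replicate 3 (0.037) and in the 4 libraries with no Y-linked counts (0.062). Leaving out single libraries, the log2 fold change ran from -0.077 to 0.22 for Cacna1a, from -0.23 to 0.011 for Cacna1g and from -0.12 to 0.037 for Cacnb4. The median log2 fold change of the tested channel genes was 0.047 with no filter (10 genes) and 0.062 in the 4 libraries with no Y-linked counts (7 genes). It lay between -0.14 and 0.037 when single libraries were left out (6 or 7 genes). Over the same 6 genes as with all libraries and the filter it was -0.057 with no filter and 0.0064 in those 4 libraries. With single libraries left out it ran from -0.14 to 0.0017 over the same 6 genes. The number of all genes called was 6 with no filter and 1 in those 4 libraries. It was 0 to 1 when single libraries were left out (1 without WT replicate 3). The cause was not tested, beyond the larger number of genes in the fit with no filter. Genes with an unadjusted p under 0.05 numbered 246 in the edgeR test, 96 with DESeq2 and 638 with no filter. A fit with the replicate block had 0 calls and a channel median of -0.075. Deviations of equal numbers correlated at 0.143, 0.0795 and 0.122, each library best with its own number, and the labels name no pairing. Depth limits Cacna1c, Cacna1d, Cacna1e, Cacna2d1 and Cacng7 most, at 2 to 18 counts per library.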
